A study of Rattus norvegicus with 174 samples.

Results

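Brain tissue taken 1 h after phosphine inhalation was compared with brain tissue taken 1 h after air, 4 rats against 4. These 8 arrays, chosen by their sample titles, belong to a series of 174 arrays of 6 tissues, and 13438 genes, those with at least 1 probe set of a single gene symbol, were measured on all of them. All rats were adult male Sprague-Dawley rats, an outbred stock, of 300 to 400 g. The exposed rats inhaled phosphine at 660 ppm for 32.2 min, a concentration-time product of 21252 ppm x min or 0.91 of the median lethal product, and the control rats inhaled air (0 ppm). The exposed rats are named Rat710, Rat712, Rat716 and Rat719 and the air rats Rat720, Rat721, Rat726 and Rat727, and values of single rats are given in that order. Heart, kidney, liver and lung of the same 8 rats were on other arrays of the series, and the brains at 3, 6 and 24 h came from other rats.

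Phosphine is a fumigant gas that is released from metal phosphides and is known to inhibit cytochrome c oxidase, the last enzyme of the mitochondrial respiratory chain, and to raise reactive oxygen. The brain depends on glucose that crosses the blood-brain barrier through the transporter encoded by Slc2a1, and on oxidative metabolism to use it. Acute stress also releases glucocorticoids from the adrenal gland, which enter the brain and, through their receptor, turn on a known set of genes within an hour or so.

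The tissue markers fit the label. All 10 neuron markers and all 8 measured oligodendrocyte markers were highest in brain among the 6 tissues, with medians of 6.30 and 5.59 log2 units above the next tissue. Transcripts of other organs differed between single brains. The air animal Rat720 stood apart with pituitary hormone transcripts, with Gh1 (growth hormone) at 11.64 and Prl (prolactin) at 10.53 on the log2 scale, against at most 3.92 and 2.78 on the other 7 arrays. The mean of the 8 hepatocyte markers, given relative to all brain arrays, ran from -0.10 to 2.27 in exposed and from -0.90 to 2.16 in air rats. RNA integrity, read as the log2 difference between 3' and 5' probe sets of Gapdh and Actb, was 0.358 to 0.404 in exposed and 0.395 to 0.552 in air rats. The means differed by -0.07 (two-sided exact permutation test, p = 0.0857, where 4 against 4 rats allow no p under 0.0286).

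At 1 h, 20 genes differed between phosphine and air in brain, which is 0.149% of the genes tested (limma, Benjamini-Hochberg adjusted p under 0.05). Of these, 15 were higher after phosphine (0.112%) and 5 were lower (0.0372%), and 4 differed at least 2-fold. In all 20 the 4 exposed rats lay entirely on one side of the 4 air rats, as did 5.75% of all genes (2.7% with the exposed rats higher and 3.05% lower). The choice of these 20 by p from the same rats favours this. The unadjusted p was under 0.05 for 1475 genes (11%), 699 higher and 776 lower, most of which did not pass the adjustment. The median over all genes was -0.001. The rises ran from 1.43-fold to 4.7-fold. With each array centred on its median, 25 genes were called, 16 higher and 9 lower. The count rested partly on single rats: without the air animal Rat721 it was 9, without the exposed animal Rat719 it was 11, and without the exposed animal Rat710 it was 70. Without both Rat710 and Rat720, an alternative chosen after the data were seen, it was 113, with all 20 genes among them.

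**Figure D1:**
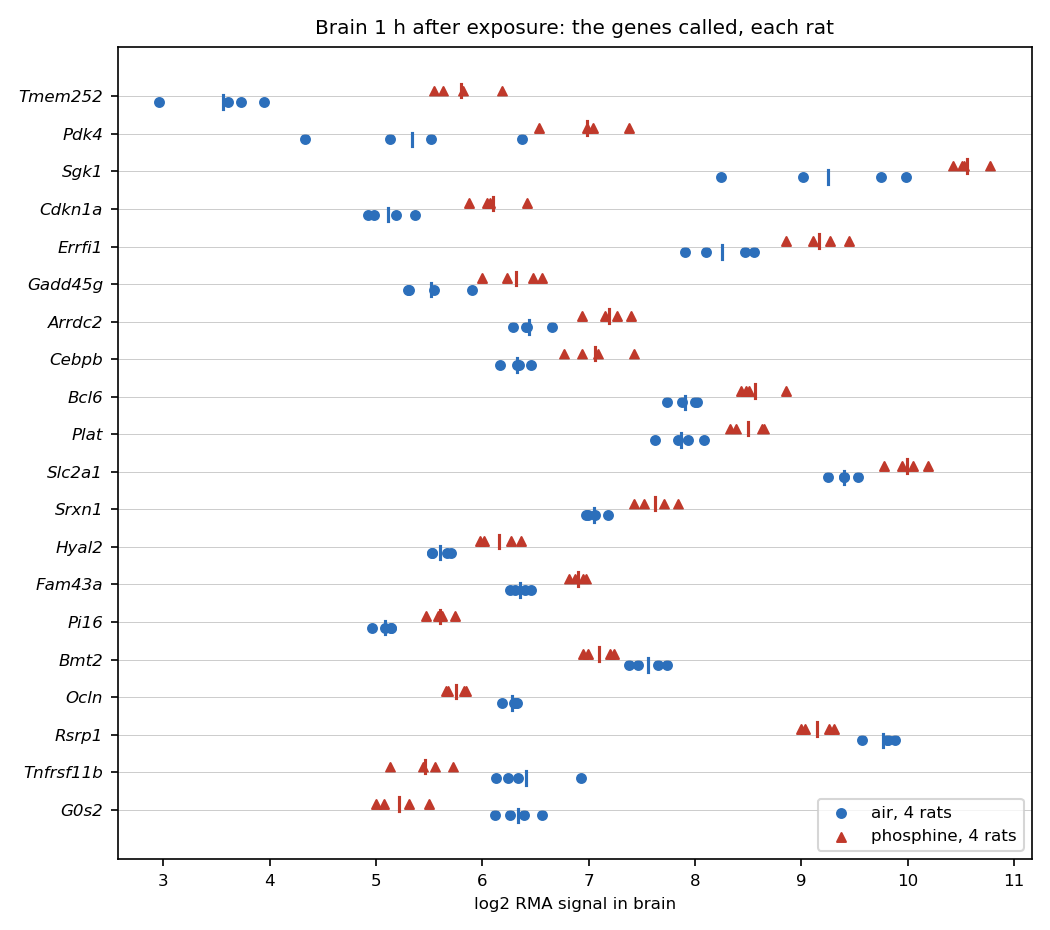
Log2 RMA signal in brain (x axis) of the 20 genes that passed the test at 1 h, with 1 row per gene, air rats as blue circles, phosphine rats as red triangles and group means as short lines. The red and blue points of each gene do not overlap; the air rats spread most for Pdk4 (4.34 to 6.37) and Sgk1 (8.24 to 9.98).

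Tmem252, which encodes a transmembrane protein of little known function, rose most. Its log2 signal was 5.55, 5.63, 5.82 and 6.19 in the exposed rats and 3.61, 2.96, 3.73 and 3.95 in the air rats. The lowest exposed brain was thus well above the highest air brain, and the air animal Rat721 had the lowest value. The difference was 2.23 ± 0.18 (log2 phosphine minus air ± SE of the limma fit, n = 4 and 4, 95% interval 1.86 to 2.60, adjusted p = 2.59e-08), a 4.7-fold rise. It was the one gene that passed when the spread was estimated from these 8 arrays alone (adjusted p = 0.0127).

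G0s2, whose protein inhibits the triglyceride lipase encoded by Pnpla2, fell most. The exposed rats had 5.50, 4.996, 5.31 and 5.08 and the air rats 6.56, 6.39, 6.12 and 6.26. Every air brain was above every exposed brain, and the difference was -1.11 ± 0.12 (95% interval -1.36 to -0.86, adjusted p = 6.93e-06), a 2.16-fold fall.

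Promoter windows of the genes that passed are held by RefSeq (assembly GRCr8) for 17 of the 20, each with 250 bases before and 50 bases after a transcription start. Printed here are those of the gene that rose most, of the gene that fell most and of 2 other genes with more than 1 match to the motifs searched. They are Tmem252 (chr1:231743146-231743445, plus strand), Srxn1 (chr3:161064562-161064861, plus strand), Gadd45g (chr17:13530302-13530601, minus strand) and G0s2 (chr13:107335899-107336198, minus strand). Capitals mark matches to any of the searched motifs, on either strand.
Tmem252: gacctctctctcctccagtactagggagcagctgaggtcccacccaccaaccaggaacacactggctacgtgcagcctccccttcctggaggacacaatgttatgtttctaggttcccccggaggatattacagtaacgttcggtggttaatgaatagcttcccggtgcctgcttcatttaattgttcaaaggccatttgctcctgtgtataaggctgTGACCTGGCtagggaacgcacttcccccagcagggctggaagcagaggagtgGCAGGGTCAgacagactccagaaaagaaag
Srxn1: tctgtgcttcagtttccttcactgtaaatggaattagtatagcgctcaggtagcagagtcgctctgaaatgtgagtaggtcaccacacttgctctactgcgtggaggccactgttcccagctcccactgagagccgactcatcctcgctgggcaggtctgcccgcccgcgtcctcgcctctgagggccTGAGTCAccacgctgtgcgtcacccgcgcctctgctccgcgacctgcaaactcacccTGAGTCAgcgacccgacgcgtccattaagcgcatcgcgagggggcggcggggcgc
Gadd45g: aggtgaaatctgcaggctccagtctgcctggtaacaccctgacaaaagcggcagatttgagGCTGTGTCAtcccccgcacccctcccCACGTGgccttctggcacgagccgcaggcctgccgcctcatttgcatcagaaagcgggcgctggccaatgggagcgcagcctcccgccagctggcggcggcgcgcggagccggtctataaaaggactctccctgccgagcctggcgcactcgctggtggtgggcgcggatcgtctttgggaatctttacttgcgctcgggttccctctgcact
G0s2: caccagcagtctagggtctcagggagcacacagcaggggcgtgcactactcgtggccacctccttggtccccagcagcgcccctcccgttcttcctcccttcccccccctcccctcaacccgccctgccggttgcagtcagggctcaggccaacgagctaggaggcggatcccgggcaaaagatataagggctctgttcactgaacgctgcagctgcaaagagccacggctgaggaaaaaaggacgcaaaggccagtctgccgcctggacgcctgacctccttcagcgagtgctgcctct

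The 6 motifs searched were the full glucocorticoid receptor element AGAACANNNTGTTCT, the single hexamer AGAACA of that element, the AP-1 site TGACTCA, the cyclic AMP response element TGACGTCA, the core of the antioxidant response element TGACNNNGC and the E-box CACGTG. The hexamer is part of the full element, and an AP-1 site followed by GC also holds the antioxidant core. The full glucocorticoid element was in none of the 17 promoters and in 0.0149% of all 33469 RefSeq windows of that length. The hexamer was in 1 of 17 (Pi16) and in 20.7% of all windows. The AP-1 site was found in Sgk1 and in 2 copies in Srxn1, against 4.63% of all windows. The antioxidant core was in Tmem252, Cdkn1a, Cebpb and Gadd45g, 4 of 17, against 12.1%. An E-box was in Bcl6 and Gadd45g, against 6.42%, and the cyclic AMP element was in none, against 1.83%. G0s2 held none of the 6. These are matches of letters in a short window, and no test was made of them.

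Genes known to respond to glucocorticoids made up 6 of the 15 rises. The glucocorticoid-responsive list, like the other lists, was chosen with earlier results of these data known, so its counts are not independent of them. Of 24 measured genes of the glucocorticoid-responsive list, 6 rose (Pdk4, Sgk1, Cdkn1a, Errfi1, Arrdc2 and Bcl6) and none fell. 13 had an unadjusted p under 0.05, all of them higher, where 5.2% of all genes were higher at that threshold. In 11 of the 24 the groups did not overlap, with the exposed rats higher, against 2.7% of all genes. The median of the list was 0.42, against -0.001 over all genes. The mean log2 signal over the 24 genes was 6.96, 7.20, 7.02 and 7.17 in the exposed rats and 6.72, 6.31, 6.49 and 6.78 in the air rats. Rat720 and Rat727 thus lay nearer to the exposed rats than Rat721 and Rat726 did.

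Sgk1 encodes a kinase that is induced by glucocorticoids and acts on ion channels and transporters. It was at 10.53, 10.78, 10.43 and 10.51 in the exposed rats, which barely differed among themselves. The air rats spread from 8.24 (Rat721) over 9.01 and 9.75 to 9.98 (Rat727). The rise was 1.31 ± 0.27 (adjusted p = 0.0404). It was lost in 8 of 19 alternative settings and left-out rats.

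Cdkn1a, which encodes the cell cycle inhibitor p21, had 6.42, 6.04, 5.87 and 6.07 in exposed and 5.36, 4.93, 4.98 and 5.19 in air rats, a rise of 0.99 ± 0.16 (adjusted p = 0.0038). The other probe set of Cdkn1a gave 1.21 ± 0.32. Errfi1, a feedback inhibitor of the epidermal growth factor receptor, rose by 0.91 ± 0.15, from 7.90 to 8.55 in air to 8.85 to 9.45 in exposed rats. Arrdc2, an alpha arrestin, rose by 0.75 ± 0.12, and Bcl6, a transcriptional repressor, by 0.66 ± 0.13 (adjusted p = 0.0226).

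Of the members of the list that did not pass, 4 are described here. Nfkbia, the inhibitor of NF-kappa B, was at 7.56 to 8.66 in exposed and 6.59 to 7.81 in air rats (1.00 ± 0.26, adjusted p = 0.119), with an overlap of the groups. Dusp1, a phosphatase of MAP kinases, was at 9.01 to 9.40 and 8.41 to 8.75 (0.68 ± 0.20, adjusted p = 0.158), without overlap. The other, dimmer probe set of Dusp1 gave 1.09 ± 0.23. The co-chaperone Fkbp5, which acts on the glucocorticoid receptor, was at 6.58 to 7.08 and 6.12 to 6.58, a difference of 0.41 ± 0.15 (adjusted p = 0.304). The metallothionein Mt2A gave 0.48 ± 0.23 (adjusted p = 0.456), with overlapping groups.

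**Figure D2:**
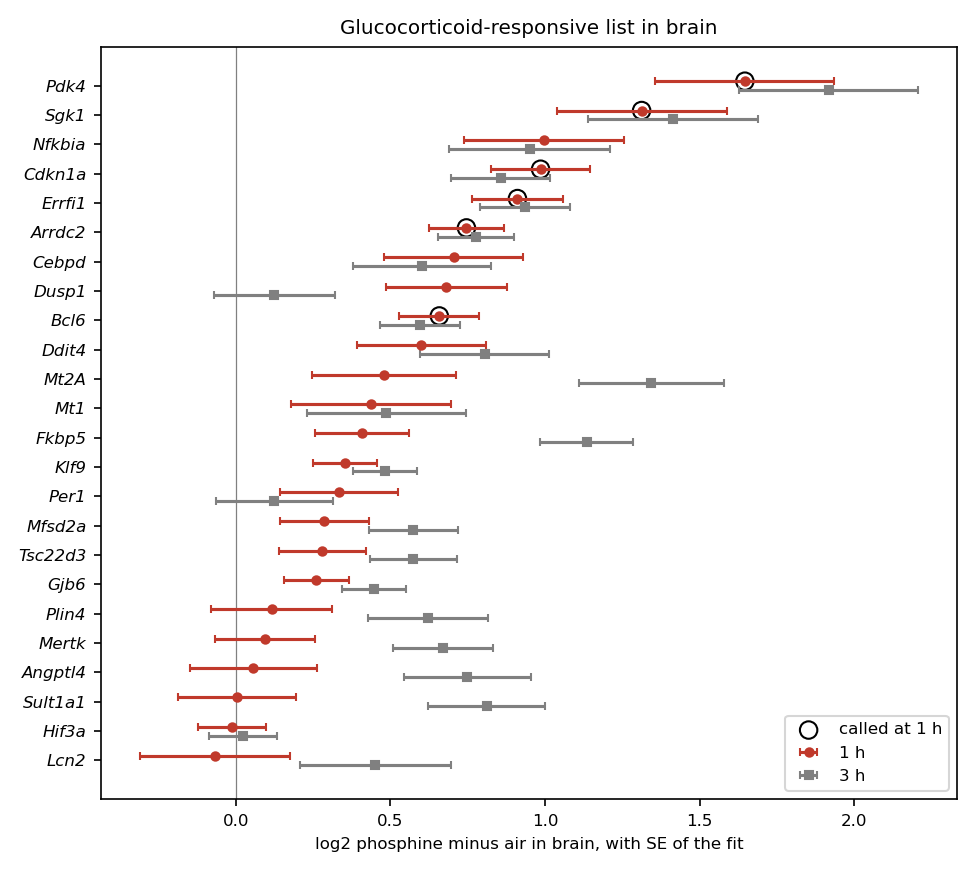
Log2 phosphine minus air in brain (x axis) with the SE of the fit, for the 24 measured genes of the glucocorticoid-responsive list, at 1 h (red circles) and at 3 h in other rats (grey squares). Black rings mark the 6 genes that passed at 1 h; Fkbp5 (0.41 at 1 h, 1.13 at 3 h) and Mt2A (0.48 and 1.34) lie further to the right at 3 h.

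Among genes of fuel choice, Pdk4, Slc2a1 and G0s2 changed and most others did not pass. Pdk4 encodes the kinase that inhibits pyruvate dehydrogenase and so holds back the oxidation of glucose carbon. It was at 7.04, 7.38, 6.54 and 6.98 in exposed rats, and at 5.52, 4.34, 5.13 and 6.37 in the air rats. The highest air rat nearly reached the lowest exposed rat. The rise was 1.65 ± 0.29 (3.13-fold, adjusted p = 0.00708), and its other probe set gave 1.31 ± 0.21. Pdk4 was the 1 gene that passed of 28 in the list of fuel choice and fatty acid oxidation, whose median was 0.001. The fatty acid receptor Cd36, at 3.20 to 3.60 in exposed and 3.71 to 3.98 in air rats, gave -0.42 ± 0.15 (adjusted p = 0.294), and the carnitine carrier Slc25a20 gave -0.17 ± 0.07 (adjusted p = 0.335).

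Slc2a1, the glucose transporter of the blood-brain barrier, was at 10.05, 9.77, 9.95 and 10.19 in exposed and at 9.40, 9.25, 9.40 and 9.53 in air rats. The rats within a group lay close together, and the rise of 0.59 ± 0.09 (1.51-fold, adjusted p = 0.0038) was the only one of 23 genes of glycolysis and glucose entry and of 29 genes of the hypoxia list. The medians of these lists were 0.07 and 0.05. Vegfa, the vascular growth factor that hypoxia induces, was at 7.07 to 7.15 in exposed and 7.07 to 7.35 in air rats (-0.11 ± 0.08, adjusted p = 0.666). P4ha1, a collagen prolyl hydroxylase, gave -0.30 ± 0.11 (adjusted p = 0.296) and Ndrg1, another hypoxia target, 0.27 ± 0.11 (adjusted p = 0.335).

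Beside the fall of G0s2, 3 genes of triglyceride handling were higher in the exposed rats without passing the adjustment. Pnpla2, the lipase that the G0s2 protein inhibits, was at 6.17 to 6.42 in exposed and 5.28 to 6.03 in air rats (0.59 ± 0.16, adjusted p = 0.119), without overlap. Lipe, the hormone-sensitive lipase, was at 4.61 to 4.92 and 4.12 to 4.57 (0.46 ± 0.12, adjusted p = 0.119), also without overlap. Dgat1, which makes triglyceride, gave 0.28 ± 0.09 (adjusted p = 0.189). In the list of lipid storage and synthesis, 1 of 20 genes passed, lower, and the median was 0.06.

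Genes of the respiratory chain and of antioxidant defence showed few changes at 1 h. None of 21 measured genes of cytochrome c oxidase passed, and their median was 0.05. At an unadjusted p under 0.05 none was higher and 2 were lower, where 5.2% of all genes were higher and 5.77% lower. The 2 were the assembly factors Cox15 (-0.18 ± 0.07, adjusted p = 0.296) and Cox18 (-0.23 ± 0.09, adjusted p = 0.348). None of 33 genes of complexes I to III and of ATP synthase reached even an unadjusted p under 0.05, and none of 23 antioxidant enzyme genes did. Of all genes, 11% did. The groups did not overlap for 1 of the 33 with the exposed rats higher and for 3 with them lower. Among the 23 they did not overlap for 1, higher. Of all genes, 2.7% were apart and higher and 3.05% apart and lower. Srxn1, which encodes the sulfiredoxin that repairs overoxidised peroxiredoxins, was the exception among 18 targets of the transcription factor NRF2. It was at 7.52, 7.84, 7.43 and 7.70 in exposed and 6.99, 6.98, 7.06 and 7.18 in air rats, a rise of 0.57 ± 0.11 (adjusted p = 0.0139). Its 2 other probe sets gave 0.45 ± 0.12 and, at a dim signal, 0.14 ± 0.11. Hmox1, the heme oxygenase of that list, was at 4.86 to 5.29 and 5.04 to 5.39 (-0.08 ± 0.13, adjusted p = 0.862), and Gclm, a subunit of the enzyme that starts glutathione synthesis, gave -0.47 ± 0.20 (adjusted p = 0.385). Catalase (Cat) gave -0.04 ± 0.20, with the groups intermixed. The iron exporter Slc40a1 was at 4.55 to 5.01 in exposed and 5.19 to 5.40 in air rats, without overlap (-0.52 ± 0.15, adjusted p = 0.158). Its other probe sets gave -0.84 ± 0.14, at a slightly brighter signal in brain, and, at a dim signal, -0.29 ± 0.17. Slc40a1 passed in 4 of 19 alternative settings and left-out rats.

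Stress and growth arrest genes gave a mixed picture. Gadd45g, a stress sensor that slows the cell cycle, was at 5.99, 6.56, 6.23 and 6.48 in exposed and 5.30, 5.31, 5.91 and 5.54 in air rats, a rise of 0.80 ± 0.16 (adjusted p = 0.0248). With Cdkn1a it was 1 of 2 rises among 18 genes of growth arrest and p53, whose median was 0.02. Its relative Gadd45b was at 6.30 to 6.63 and 6.00 to 6.14, without overlap (0.39 ± 0.10, adjusted p = 0.0999). Cebpb, a bZIP transcription factor, was at 6.77, 6.94, 7.09 and 7.42 against 6.45, 6.35, 6.33 and 6.17 (0.73 ± 0.15, adjusted p = 0.039). It was the 1 rise among 29 genes of the integrated stress response, whose median was 0.02; Ddit3, the CHOP transcription factor, gave 0.12 ± 0.09 (adjusted p = 0.666) and Chac1, a glutathione-degrading enzyme, 0.41 ± 0.15 (adjusted p = 0.302). Among 17 heat shock chaperones none passed. At an unadjusted p under 0.05, where 5.77% of all genes were lower, 3 of the 17 were lower. They were Hspa1a (-0.52 ± 0.14, adjusted p = 0.126), Chordc1 (-0.33 ± 0.11, adjusted p = 0.234) and Dnajb1 (-0.23 ± 0.08, adjusted p = 0.254).

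At the blood-brain barrier, 1 gene rose, 1 fell and 24 of 26 did not pass, where 0.112% of all genes rose and 0.0372% fell. At an unadjusted p under 0.05, 2 of the 26 were higher and 5 lower, where 5.2% of all genes were higher and 5.77% lower. In 3 the exposed rats lay entirely above the air rats and in 3 entirely below, as in 2.7% and 3.05% of all genes. The gene that rose was Slc2a1. The gene that fell was Ocln, which encodes the tight junction protein occludin. It was at 5.82, 5.85, 5.67 and 5.66 in exposed and 6.18, 6.32, 6.33 and 6.30 in air rats, a fall of -0.53 ± 0.10 (adjusted p = 0.0105). In a bulk sample, fewer cells of a type and less RNA per cell cannot be told apart. The mean of 9 endothelial markers, relative to all brain arrays, ran from -0.11 to 0.08 in exposed and from -0.10 to 0.00 in air rats, so the groups overlapped. Other junction genes differed in sign, with Tjp1 (ZO-1) at -0.22 ± 0.09 (adjusted p = 0.324) and the endothelial adhesion molecule Esam at 0.26 ± 0.08 (adjusted p = 0.182). The organic anion transporter Slco1a4 was at 8.29 to 8.41 in exposed and 8.55 to 8.71 in air rats, without overlap (-0.26 ± 0.09, adjusted p = 0.297).

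Plat, the tissue plasminogen activator, was at 8.38, 8.33, 8.64 and 8.63 against 7.94, 7.84, 8.08 and 7.62 and rose by 0.63 ± 0.11 (adjusted p = 0.0098). Hyal2, a hyaluronidase, rose by 0.55 ± 0.09, from 5.53 to 5.70 in air to 5.97 to 6.36 in exposed rats. Pi16, a peptidase inhibitor, rose by 0.52 ± 0.11 (adjusted p = 0.0352), a call that was lost in 11 of 19 alternative settings and left-out rats. Tnfrsf11b encodes osteoprotegerin, the decoy receptor of RANKL. It was at 5.73, 5.44, 5.56 and 5.13 in exposed and 6.24, 6.93, 6.12 and 6.34 in air rats, a fall of -0.94 ± 0.19 (adjusted p = 0.0248), and was the 1 gene that passed of 29 in the cytokine list.

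Rsrp1, Bmt2 and Fam43a have other roles. Rsrp1, an arginine- and serine-rich protein gene, was at 9.26, 8.99, 9.03 and 9.30 in exposed and 9.57, 9.81, 9.88 and 9.81 in air rats, a fall of -0.62 ± 0.11 (adjusted p = 0.00708); the other probe set gave -0.80 ± 0.15. Bmt2, whose protein senses S-adenosylmethionine for the mTORC1 pathway, fell by -0.47 ± 0.08 (adjusted p = 0.0062). Fam43a rose by 0.54 ± 0.09, with 6.82 to 6.98 in exposed and 6.26 to 6.46 in air rats (adjusted p = 0.00525). Over the 7 genes with more than 1 probe set, every other probe set had the sign of the one used.

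The 15 genes next in line by p had adjusted p from 0.0543 to 0.0724. In 14 of them the groups did not overlap, beside 5.75% of all genes, and the choice by p favours this. Of the 15, 6 were higher and 9 lower. The closest was Mex3c, an RNA-binding ubiquitin ligase, with 7.18 to 7.36 in exposed and 7.61 to 7.82 in air rats (-0.40 ± 0.09). Among the higher ones were Tinagl1, a matrix protein, whose groups overlapped (0.63 ± 0.14), Smim3 (0.60 ± 0.13), and Rhob, a small GTPase (0.39 ± 0.09); among the lower ones were Tob1, an antiproliferative gene (-0.47 ± 0.11), Xrcc2, a DNA repair gene (-0.54 ± 0.12), and Zfp9 (-0.52 ± 0.12). The chemokine receptor Cxcr4, at 3.41 to 4.45 against 4.55 to 4.98, followed with -0.75 ± 0.19 (adjusted p = 0.106), and the muscarinic receptor Chrm2 with -0.46 ± 0.11 (adjusted p = 0.106). None of 18 cholinergic genes and none of 27 glutamate and GABA receptor genes passed.

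The brains at 3 h came from other exposed and other air rats and share no sample with those at 1 h. All 20 genes kept their sign there, while 46.4% of all genes and 50.4% of the 1475 genes with an unadjusted p under 0.05 at 1 h did. At 3 h, 68 genes (0.506%) passed, and 11 of the 20 were among them, 9 higher (0.365% of all genes) and 2 lower (0.141%), which is 55% of the one and 16.2% of the other list. The 11 include Tmem252 (1.64 ± 0.18), Slc2a1 (1.02 ± 0.09), Pdk4 (1.92 ± 0.29), G0s2 (-0.73 ± 0.12) and Tnfrsf11b (-1.13 ± 0.19). Seen from 3 h, 64 of the 68 genes had the same sign at 1 h and 35 had an unadjusted p under 0.05 there. Both times were tested in 1 fit of the 30 brain arrays. The calls at 1 and 3 h thus share the estimate of each gene's spread and are not independent.

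The difference between the effects at 3 h and at 1 h was tested directly, and limma found no gene below the threshold, with 1475 genes (11%) at an unadjusted p under 0.05. Without the exposed 3 h animal Rat729, 7 genes passed. Slc2a1 was nominally larger at 3 h by 0.42 ± 0.13 (adjusted p = 0.31), and Fkbp5 by 0.73 ± 0.21 (adjusted p = 0.305). Slco1a4 was more negative at 3 h by -0.51 ± 0.13 (adjusted p = 0.297), and Tmem252 was smaller there by -0.59 ± 0.25 (adjusted p = 0.408). The smallest p belonged to Samd12, at -0.46 at 1 h and 0.35 at 3 h (difference 0.81 ± 0.16, adjusted p = 0.221). At 6 h, with 2 air rats, 17 of the 20 genes had their sign of 1 h, and at 24 h 6 had. The share of all genes that did was not computed for these times, so neither count shows persistence or its loss. limma called none of all genes at either time, with 5.64% and 3.79% at an unadjusted p under 0.05.

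**Figure D3:**
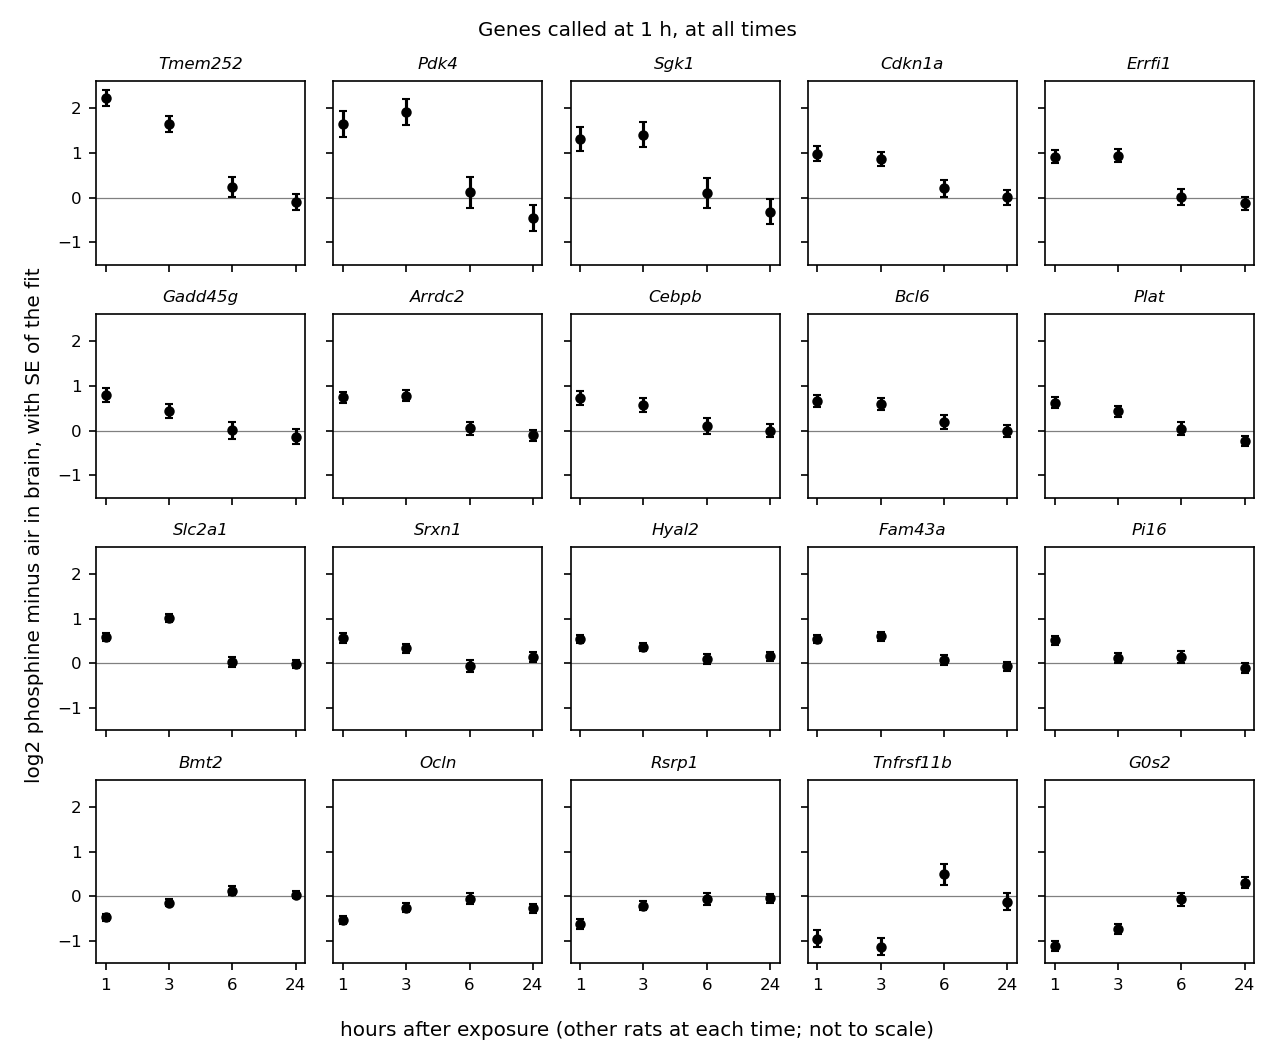
Log2 phosphine minus air in brain (y axis) with the SE of the fit at 1, 3, 6 and 24 h (x axis, not to scale), 1 panel for each of the 20 genes that passed at 1 h; each time has its own rats. At 3 h Tmem252 is at 1.64 and Slc2a1 at 1.02, and at 6 h they are at 0.24 and 0.04.

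In the same rats, brain had fewer genes past the threshold at 1 h than each of the 4 other organs: 20 against 179 in heart (1.33%), 419 in kidney (3.12%), 45 in liver (0.335%) and 779 in lung (5.8%). That order depends on the brain count given above: it was 70 without Rat710, above liver, and 382 with array weights, above heart as well; the counts of the other organs are those with all rats and no weights. 12 of the 20 brain genes were also called, in the same direction, in at least 1 other organ, and 8 in none of them. None was called in the opposite direction. Tmem252 rose in heart (1.54), kidney (1.01) and lung (1.45), and Cdkn1a, Cebpb and Rsrp1 also passed in 3 organs each. The 8 are Slc2a1, Arrdc2, Hyal2, Ocln, Srxn1, Bcl6, Tnfrsf11b and Pi16. A call in one organ only does not show a difference between organs. The test of the brain effect against the mean effect of the 4 other organs called none of the 20, with Tmem252 (1.15 ± 0.26, adjusted p = 0.056) and Tnfrsf11b (-1.14 ± 0.27, adjusted p = 0.0645) closest. With the rat as a block, since the organs come from the same rats, limma called 3 of the 20: Tmem252 (adjusted p = 0.00458), Tnfrsf11b (adjusted p = 0.0417) and G0s2 (-0.83, adjusted p = 0.0446).

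That test called 26 genes (0.193%), 21 more negative in brain and 5 more positive. With the rat as a block it called 50 genes (0.372%), 24 of them the same. It called 6 genes without Rat712, 8 without Rat726, 9 without Rat721 and 11 without Rat719. The largest difference was that of Atf3, a transcription factor of the cellular stress response. In brain it was at 3.07, 2.66, 3.30 and 2.54 in exposed and 2.94, 2.89, 3.10 and 3.13 in air rats, a difference of -0.12 ± 0.18. In heart it rose by 4.16, in kidney by 3.96 and in lung by 1.87, and the brain effect minus the mean of the others was -2.68 ± 0.35 (adjusted p = 9.7e-05). Ifrd1, a transcriptional coregulator, was 0.15 ± 0.05 in brain against rises of 1.66, 1.48, 1.23 and 0.89 in heart, kidney, liver and lung (-1.17 ± 0.16, adjusted p = 9.7e-05). The phosphate transporter Slc20a1 (-0.85 ± 0.13) and the protease Adamts1 (-1.46 ± 0.22) followed.

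Immediate early genes are switched on by neurons and other cells within minutes of a stimulus. As a list, their median showed this contrast against heart and kidney, while the medians of liver and lung lay near that of brain. None of 29 measured members passed in brain, and the median was 0.11. At an unadjusted p under 0.05, 5 were higher and 2 lower, where 5.2% of all genes were higher and 5.77% lower. Of the same 29 genes, 18 rose in heart, 13 in kidney, 5 in lung and none in liver, where 0.99%, 2.12%, 2.18% and 0.208% of all genes rose, with medians of 1.35, 0.62, 0.05 and 0.17. The direct test called 4 of the 29 members, beside 0.193% of all genes, and all 4 were more negative in brain. They were Atf3, Myc (-1.62 ± 0.34), Klf6 (-0.77 ± 0.17) and Nr4a3, which was named after its value was seen (-1.61 ± 0.35). Of 16 alternative settings and left-out rats, Klf6 was lost in 9, Nr4a3 in 7, Myc in 5 and Atf3 in none. With the rat as a block, 7 members were called, beside 0.372% of all genes, and all 7 were more negative in brain. They were these 4 and Nr4a1, Maff and Ccn2, named after their values were seen. In brain itself the member with the largest difference was Egr4, at 5.96 to 6.65 in exposed and 5.36 to 5.96 in air rats (0.72 ± 0.22, adjusted p = 0.196). Zfp36, an mRNA-decay factor, gave 0.50 ± 0.16 (adjusted p = 0.24). The glucocorticoid list had medians of 0.54, 0.61, 0.41 and 0.52 in heart, kidney, liver and lung, beside 0.42 in brain, and none of its members differed in the direct test.

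**Figure D4:**
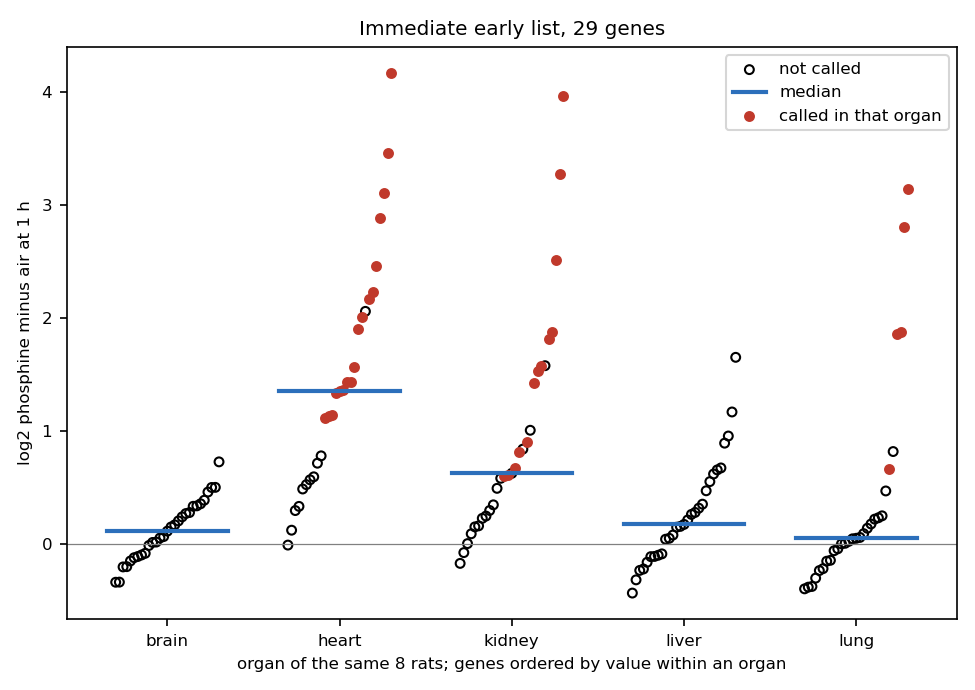
Log2 phosphine minus air at 1 h (y axis) for 29 immediate early genes in brain and in 4 other organs of the same 8 rats (x axis), each point 1 gene, filled where it passed in that organ, with the median as a blue line. In brain no point is filled and the median is 0.11; in heart 18 are filled and the median is 1.35.

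Of the 26 marker lists, the oligodendrocyte and the kidney tubule list had means whose groups did not overlap. Among all single genes, 5.75% had groups that did not overlap. The mean of the 8 oligodendrocyte markers, relative to all brain arrays, was -0.07 to 0.06 in exposed and -0.26 to -0.18 in air rats, without overlap. Of its members, 7 were higher in exposed rats, 3 of them at an unadjusted p under 0.05 (limma), and 1, Mbp, was lower. Mobp, a myelin protein gene, was at 12.15, 12.39, 12.02 and 12.04 in exposed and 11.87, 11.59, 11.60 and 11.99 in air rats (0.39 ± 0.15, adjusted p = 0.335), while Mbp, the most abundant, gave -0.09 ± 0.08 with overlapping groups. The mean of the 6 kidney tubule markers went the other way, with -0.12 to 0.48 in exposed and 0.50 to 0.93 in air rats. Of its members, 3 were higher and 3 lower in exposed rats, with a median difference of -0.15. Kap, a kidney androgen-regulated gene, was at 4.16, 2.73, 3.25 and 4.46 against 4.64, 5.21, 6.76 and 5.21 (-1.80 ± 0.73, adjusted p = 0.348), and Miox, the renal inositol oxygenase, gave -1.34 ± 0.51 (adjusted p = 0.31). Both were among the 21 genes more negative in brain than in the other organs, as were Pde6g (-1.92 ± 0.33) and Gngt1 (-0.68 ± 0.12), genes of phototransduction. In that test Miox was lost in 7 and Kap in 4 of 16 alternative settings and left-out rats, and Pde6g and Gngt1 in 3 of 15 each. The part of these transcripts in the 20 changes was not tested. None of the 20 genes belongs to either marker list.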

How the data were processed

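The authors deposited a log2 signal for each of 31139 probe sets (1.74 to 14.13), made with RMA and Partek, per the submitters' processing notes; versions and whether tissues were normalized together are not given in the sources used here. RNA was labelled with the 3' IVT Plus kit for single-colour rat arrays, per the labels' protocols. Precision is limited by the number of arrays.

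Probe sets of 1 gene (19063) gave 13438 genes, each read from its probe set of highest mean signal in the series; 3985 genes had several. Symbols were updated through Entrez IDs in the RefSeq list, which held 18983 of these probe sets. The 30 brain arrays were fitted with limma 3.58.1 in R 4.3.3, a mean per group, with eBayes and a Benjamini-Hochberg threshold of 0.05. The difference from 3 h used the same fit, and that from heart, kidney, liver and lung the 40 arrays at 1 h, whose organs are paired by the rat named in the sample titles. In the tests within brain, p-values measure the spread between rats. The organ test without the block treats the organs of a rat as independent arrays. With the rat as a block, it measures the spread left between organs within rats. The fits were checked on simulated data. Figures used python 3.11.15 and matplotlib 3.10.9.

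The comparison and the gene and marker lists (26 each) were chosen with earlier results of these data known. Named were all called genes, the 15 next, up to 5 genes of each function list by p, 3 of each marker list by level, 6 of each difference test and a panel (Hmox1, Mt2A, Ddit3, Fkbp5, Atf3, Vegfa, Cat, Slc2a1); fewer are printed. Myc and Klf6 in the organ test fell under this rule through their list. Alternatives were other normalizations, a filter on dim genes, other probe set rules, eBayes with trend, array weights, fewer arrays, pooled air rats, the rat as a block and leaving out rats.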

Additional observations from a re-analysis of the deposited data

Results flagged for a closer look

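Among 144 groups of 4 rats behind the printed genes, 9 had 1 rat far from the other 3 by Dixon's ratio at its 95% critical value, where chance gives about 1 in 20. In the air group these were Gadd45b in Rat721 (5.998, the others from 6.124), Slco1a4 in Rat726 (8.706, the others up to 8.571) and Cox18 in Rat726 (6.879, the others from 7.237). In the exposed group Rat712 was lowest for Miox (2.999, the others from 3.907) and Mex3c (7.182, the others from 7.339). Rat710 was highest for Tob1 (8.334, the others up to 8.142) and Myc (4.002, the others up to 3.504), and Rat716 was lowest for Zfp9 (4.719, the others from 4.897) and highest for Pde6g (5.021, the others up to 3.107). None of the 20 genes that passed in brain was among them.

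The effect at 1 h differed between brain and the mean of heart, kidney, liver and lung for 11 of the genes printed with that test. These calls are by limma without the rat as a block, and all 11 were more negative in brain. The differences were -2.68 for Atf3, -1.17 for Ifrd1, -0.85 for Slc20a1, -1.46 for Adamts1, -1.62 for Myc, -1.61 for Nr4a3 and -0.77 for Klf6, genes that were called higher in at least 1 of the other organs. They were -1.92 for Pde6g, -0.68 for Gngt1, -1.87 for Kap and -1.37 for Miox, none of which was called in any of the 5 organs alone. Hspa1a, printed above among the heat shock chaperones, also differed, by -1.15 (limma, adjusted p = 0.0423), and was called higher in lung (1.61). With the rat as a block, limma also called Tmem252, more positive in brain (1.15), and Tnfrsf11b and G0s2, more negative in brain.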

How the results depend on the processing

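The 20 genes called in brain kept their direction in all of the 19 alternative settings and left-out rats that could be computed for each. Since their groups do not overlap, leaving out rats or weighting arrays could not reverse the direction. Settings that change only the estimate of the spread could not reverse it either. Tmem252, which the filter on dim genes left out, was called in all 18 others. 8 genes (Arrdc2, Cdkn1a, Errfi1, Fam43a, G0s2, Hyal2, Rsrp1 and Slc2a1) were lost only when the 8 arrays alone set the spread, 7 were lost in 2 to 5 settings, and Cebpb, Gadd45g, Pi16 and Sgk1 in more. The number called was 34 without dim genes, 382 with array weights (127 higher, 255 lower), 1 with the 8 arrays alone and 218 with air rats of all times pooled (85 higher, 133 lower). It was 113 without Rat710 and Rat720 (37 higher, 76 lower) and 31 without the air 3 h Rat738 and Rat739, both chosen after the data were seen. Leaving out each rat in turn gave 9 to 70, with 43 of the 70 lower. All 20 remained among the calls with array weights, without Rat710 and Rat720, and without Rat710, and 19 did with pooled air rats.

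For the difference between 3 h and 1 h, array weights gave 7 calls and leaving out each rat gave 0 to 7, the 7 without the exposed 3 h Rat729; the other settings gave 0. For brain against the other organs, array weights gave 899 calls, the rat as a replicate block 50 and leaving out each rat 6 to 26. Of the printed genes, 2 with values near 0 changed sign: Cat ran from -0.1996 to 0.0439 over the left-out rats, with 0.0087 without Rat721, 0.0313 without Rat726 and the highest value without Rat716, and Mbp was 0.0254 as the mean of its probe sets. The causes of these shifts were not tested.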
